A study of Mus musculus with 2 samples.

Results

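Among 9933 bone marrow cells (BMCs) of 1 WT and 1 Cko mouse, 102 carried the transcripts of complement C1q, 82 of 6271 cells in the WT and 20 of 3662 in the Cko. They are called C1q cells here. A C1q cell was a droplet barcode with at least 200 detected genes and at least 5 unique molecular identifiers (UMIs, each standing for 1 captured transcript) summed over C1qa, C1qb and C1qc. Cells in which at least 1% of the UMIs came from the hemoglobin genes (names starting with Hba- or Hbb-) were described apart from the rest. The BMCs came from fore- and hindlimbs of C57BL6/J mice at postnatal day 21, were freed with collagenase and treated with a buffer that lyses red blood cells, and were sequenced with the 10x Genomics 3′ chemistry. Cko (S1P cko-Osx) mice carried the Osx1-GFP::Cre transgene and 2 floxed copies of Mbtps1, in which exon 2 is flanked by loxP sites. The WT mouse is labelled only as WT, and the study uses this name for mice with the 2 floxed copies (S1P f/f) without Cre. Mbtps1 encodes site-1 protease (S1P), which cleaves the membrane-bound precursors of SREBP and ATF6 transcription factors. The Osx promoter drives Cre in bone-forming cells, and the study infers that it is likely active in blood-forming cells too. It reports the loss of exon 2 in sorted neutrophils of every Cko mouse examined for it, so the deletion was not restricted to bone. Whether the C1q cells carried the deletion is not known. Each genotype was 1 mouse and 1 library. The genotype, the mouse and the preparation cannot be told apart, and no test between genotypes was possible.

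C1q is the recognition molecule of the classical complement pathway, and tissue-resident macrophages make much of it. Bone marrow macrophages take up dying cells and the nuclei shed by maturing red cells, and they recycle heme iron. In erythroblastic islands a central macrophage holds developing red cells through adhesion molecules such as Vcam1.

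Totals were 56382459 UMIs for the WT and 34447224 for the Cko, with medians of 6977 and 7440 UMIs per cell. The deposited counts listed 7181 genes in the WT and 6735 in the Cko, each with at least 4 UMIs in some cell, so a gene that is not listed was not read as 0. Hemoglobin reached 1% of the UMIs in 50.2% of the WT and 13.2% of the Cko cells. The libraries shared 28 barcodes, and none of these was a C1q cell in either library. Scrublet called 1 of the 102 C1q cells, in the WT, as a doublet. C1q UMIs were also seen in cells that should lack the transcript, and their source was not tested. At least 1 was seen in 2.71% of the B-marked cells of the WT (median 5487 UMIs) and 2.53% of those of the Cko (median 6588 UMIs), whereas the members needed 5. The WT and Cko shares were higher in neutrophil-marked (5.33% and 3.51%) and erythroid-marked cells (3.80% and 3.85%). They were lower in monocyte-marked cells (1.94% and 1.44%). All intervals below are exact 95% intervals and cover counting error only. Levels are UMIs per 1000000 non-hemoglobin UMIs of the summed cells of a group (CPM).

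Mbtps1 (chr8:119508156-119558735, minus strand, GRCm38) gave 11 UMIs in the 26 WT C1q cells under 1% hemoglobin, or 45.9 CPM. It gave 8 in the 18 such Cko cells, or 52.6 CPM, a Cko/WT ratio of 1.15 (0.400 to 3.13). The 3′ tags lie outside the deleted exon, so these counts do not check the deletion. Sp7, which encodes Osterix, was listed in the WT alone and had 0 UMIs in its 82 C1q cells.

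The sequences upstream of genes that separate the C1q cells are shown because they let the chosen genes and the MHC class II genes be read beside their counts. C1qa (chr4:136895917-136898803), C1qc (chr4:136889804-136893065) and C1qb (chr4:136880129-136886187) lie next to each other on the minus strand of chromosome 4 in GRCm38. The bases before the RefSeq start of C1qb (chr4:136886201-136886450) and C1qc (chr4:136893066-136893164, the stretch outside the annotated gene) each hold AGGAAGT, the core letters read by ETS-family factors such as PU.1, written in capitals and present here as the reverse complement ACTTCCT. The match lies 53 bases before the C1qb start and 195 before the C1qc start. H2-Aa (chr17:34287824-34288073, minus strand) and H2-Eb1 (chr17:34305617-34305866, plus strand) encode chains of MHC class II molecules, and the capitals mark the CCAAT box, 48 bases before the start of H2-Aa and 59 and 35 before that of H2-Eb1.
C1qb: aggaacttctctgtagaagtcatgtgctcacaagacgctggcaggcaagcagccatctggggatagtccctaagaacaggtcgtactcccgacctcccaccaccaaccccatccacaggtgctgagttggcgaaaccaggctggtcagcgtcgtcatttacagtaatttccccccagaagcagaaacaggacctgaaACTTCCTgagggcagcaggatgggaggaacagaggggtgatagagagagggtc
C1qc: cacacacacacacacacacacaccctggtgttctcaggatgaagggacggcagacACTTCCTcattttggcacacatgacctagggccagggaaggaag
H2-Aa: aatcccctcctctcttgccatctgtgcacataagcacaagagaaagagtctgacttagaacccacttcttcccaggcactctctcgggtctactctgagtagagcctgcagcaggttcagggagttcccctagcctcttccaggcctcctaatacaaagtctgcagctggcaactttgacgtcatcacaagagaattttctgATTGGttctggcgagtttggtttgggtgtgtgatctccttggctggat
H2-Eb1: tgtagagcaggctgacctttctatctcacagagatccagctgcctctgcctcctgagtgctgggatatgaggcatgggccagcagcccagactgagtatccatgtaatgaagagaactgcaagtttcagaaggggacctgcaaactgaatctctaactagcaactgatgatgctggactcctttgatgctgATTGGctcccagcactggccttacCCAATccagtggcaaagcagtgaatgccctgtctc
Both strands were searched in the 250 bases before each RefSeq start (GRCm38.p6), and the letters of the 2 motifs cannot overlap. AGGAAGT was found in 2525 of 32851 windows (7.69%) and CCAAT in 11120 (33.85%). Among the genes named as highest over other cells in either library, 20 of 32 had a window, of which 2 held AGGAAGT and 9 held CCAAT. All 4 of the MHC class II genes with a window held CCAAT (H2-Aa, H2-Eb1, H2-DMa and H2-DMb1). A match describes letters and does not show binding.

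Of all WT cells 1.31% (1.04 to 1.62%) were C1q cells, and of all Cko cells 0.546% (0.334 to 0.842%), a ratio of 0.418 (0.243 to 0.687). The difference in number went with hemoglobin. Of the WT members, 56 of 82 (68.3%, 57.1 to 78.1%) reached 1% hemoglobin, against 2 of 20 (10%, 1.23 to 31.7%) in the Cko. Among cells under 1% hemoglobin the C1q share was 0.832% in the WT (26 of 3126) and 0.567% in the Cko (18 of 3177), a ratio of 0.681 (0.352 to 1.29) whose interval includes equal shares. Among hemoglobin-bearing cells it was 1.78% (56 of 3145) and 0.412% (2 of 485), a ratio of 0.232 (0.0274 to 0.877). Within the WT, C1q cells were 2.14-fold (1.32 to 3.55) as frequent among hemoglobin-bearing cells as among the others. The B-marked cells, which were chosen under 1% hemoglobin, held a median of 0.301% hemoglobin in the WT and 0.0792% in the Cko. The limit of 1% thus lay closer to this level in the WT, and its part in the counts was not tested. Fewer cells above the limit of 5 UMIs and less C1q RNA per cell cannot be told apart by such a count.

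**Figure D1:**
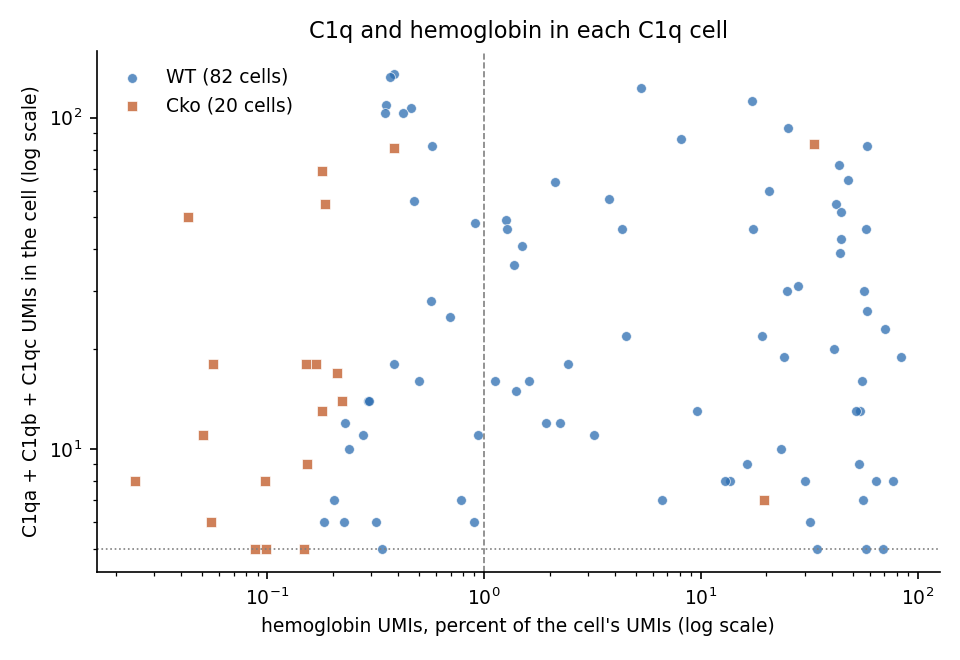
Each point is 1 C1q cell, with the percentage of its UMIs from hemoglobin genes on a log x axis and its UMIs of C1qa, C1qb and C1qc on a log y axis (82 WT cells as circles, 20 Cko cells as squares). Lines mark 1% hemoglobin and the limit of 5 C1q UMIs, and 18 of the 20 Cko cells lie to the left of the hemoglobin line against 26 of the 82 WT cells.

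Hemoglobin in the WT members had no gap at the limit of 1%. Their hemoglobin share ran from 0.182% to 84.0% of the UMIs, and 15 of the 56 hemoglobin-bearing members drew at least 50% from it. By hemoglobin content, C1q cells were 4.09% (15 of 367) of WT cells with 1 to 5% hemoglobin, 1.96% (10 of 509) of those with 5 to 20%, 2.70% (16 of 593) of those with 20 to 50% and 0.895% (15 of 1676) of those with 50% or more. The share was highest in the bin of 1 to 5%, and its interval (2.31 to 6.65%) lay above that of the cells under 1% (0.544 to 1.22%). Depth moved with the bins, from a median of 14908 UMIs in the bin of 1 to 5% to 5579.5 in that of 50% or more, against 7784 under 1%, and its part in the shares was not tested. In the Cko the 2 hemoglobin-bearing members held 19.5% and 33.3% hemoglobin. With every cell thinned to 3000 UMIs, C1q cells were 0.846% of the WT and 0.328% of the Cko cells.

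**Figure D2:**
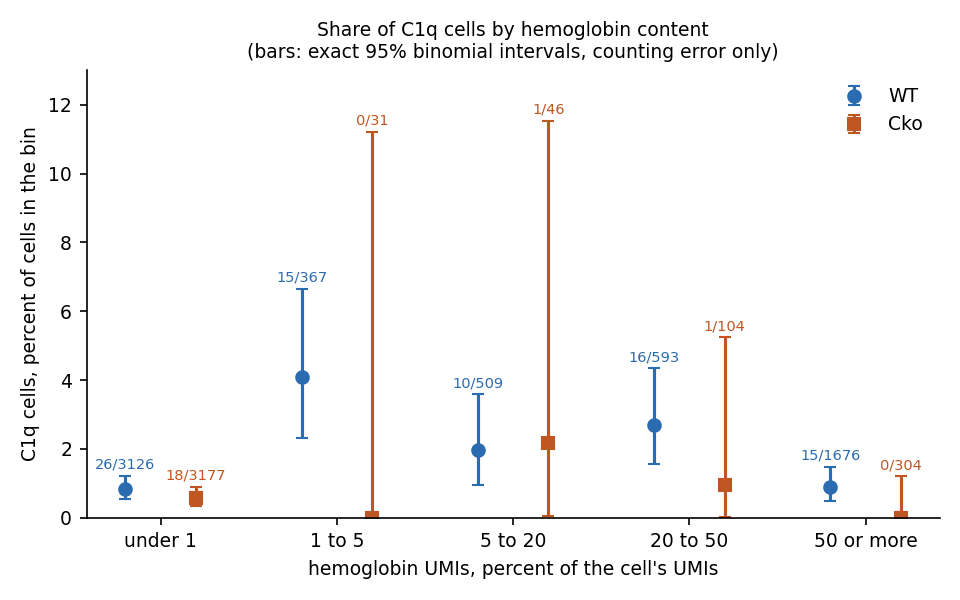
Share of C1q cells (y axis, percent of the cells in a bin) by hemoglobin content of the cell (x axis, percent of UMIs), with the WT as circles and the Cko as squares, exact 95% binomial intervals as bars and the number of C1q cells over all cells as labels. The WT share is highest at 4.09% in the bin of 1 to 5%, and in the Cko bins above 1% hemoglobin hold 2 C1q cells in all.

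The cells were selected on C1qa, C1qb and C1qc, so the levels of these genes are a description. In the WT members under 1% hemoglobin the C1q sum was 5 at the lowest, 15 at the median and 135 at the highest. In the hemoglobin-bearing WT members it was 5, 21 and 123, and in the Cko members under 1% hemoglobin 5, 13.5 and 81. The groups overlap over nearly their whole range. Summed over the cells under 1% hemoglobin, the WT and Cko levels were 1564 and 927 CPM for C1qa, 1418 and 901 for C1qb, and 1514 and 868 for C1qc. The 3 genes thus kept similar levels to each other within each library. The members held 89.0% of all C1q UMIs of the WT library and 74.96% of those of the Cko.

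The name of resident macrophages was checked with Vcam1 (chr3:116109949-116129688, an adhesion molecule of island macrophages), Hmox1 (chr8:75093621-75100589, heme oxygenase, which opens the heme ring) and Axl (chr7:25757273-25788705, a receptor for the uptake of dying cells), none of which was used in the choice. The study lists the 3 genes, with C1qa, C1qb and C1qc, among the top genes of the macrophage cluster of this WT library. They are thus not an independent check of the name. Their UMIs were common in WT members with many C1q UMIs and less common in those near the limit. All 33 WT members with at least 30 C1q UMIs had a UMI of at least 2 of these 3 genes, as had 21 of 29 (72.4%) of those with 10 to 29 and 6 of 20 (30%) of those with 5 to 9. In the Cko the counts were 4 of 5, 6 of 7 and 6 of 8. The 4 of 5 included a cell with 1 UMI of Vcam1 and 1 of Axl among 18617 UMIs. The 6 of 7 included cells with 109, 266 and 315 UMIs of the neutrophil gene S100a8. The last count included cells richer in S100a8 (2194, 1638 and 1213 UMIs), with 1 to 3 UMIs each of Vcam1 and Hmox1. It thus does not show that the name held near the limit in the Cko. Just inside the limit, at 5 to 6 C1q UMIs, the counts were 3 of 9 WT and 2 of 4 Cko cells. Just outside it, at 3 to 4 UMIs, they were 4 of 20 and 2 of 16 cells, and with no C1q UMI 0.355% of the WT and 0.623% of the Cko cells. The cells are therefore called C1q cells and not macrophages throughout.

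Transcripts of other cells stood beside those of C1q in many members. Of the 26 WT members under 1% hemoglobin, 7 had at least 20 UMIs of the neutrophil genes Ngp, Camp, Ltf and Lcn2, 6 had at least 5 UMIs of the B cell genes Cd79a, Cd79b, Ebf1 and Vpreb3, and 2 had at least 5 UMIs of the erythroid genes that mark red cell precursors, such as Alas2, Slc4a1, Hemgn and Rhd. In all 14 of the 26 met at least 1 of these rules. Of the 18 Cko members under 1% hemoglobin, 6 met the neutrophil rule and none the B cell or erythroid rule. The monocyte rule (at least 5 UMIs over Ms4a6c, F13a1, Ccr2, Csf1r and Fn1) was met by 6 of the 26 WT and 8 of the 18 Cko members, and the monocyte markers took a median of 0.0550% and 0.176% of the UMIs. The full list of 12 neutrophil markers took 0.0551%, 0.212% and 42.1% of the UMIs (lowest, median, highest) in the WT cells and 0.192%, 0.356% and 53.0% in the Cko cells. The 11 listed B cell markers took up to 1.71% of UMIs in 1 WT cell and at most 0.0732% in a Cko cell, where Vpreb1, Vpreb3, Igkc, Ms4a1 and Fcrla were at 0. The 15 listed erythroid markers reached 0.638% in the WT cells, and 8 of them were at 0 in the Cko cells. Of the 10 T and NK cell markers 2 had UMIs in each group, and Cd3d, Cd3e and Cd3g were at 0. Of the dendritic cell markers 2 had UMIs in each group, and Flt3, Cd209a and Siglech were at 0. Of the 4 listed osteoclast markers, 2 had UMIs in the WT cells (11 in all) and 3 in the Cko cells (13 in all), and the protease Ctsk was at 0 in both. In each library 12 members under 1% hemoglobin met none of the neutrophil, B cell and erythroid rules. They are called rule-free here, a choice made after the values were seen. The monocyte rule was not used to leave cells out, and some rule-free cells of each library met it. They still held some transcripts of other cells. A WT cell among them had 131 UMIs of Elane and 139 of Mpo, genes of granulocyte precursors, erythroid markers reached 0.422% of the UMIs of another WT cell, and stromal and endothelial markers reached 0.587% of those of a Cko cell.

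Against the other cells under 1% hemoglobin of the same library (fewer than 5 C1q UMIs), the C1q cells of both genotypes had higher levels of nearly all macrophage surface genes, of all MHC class II genes and of part of the heme and lysosome genes that could be compared. Of 6789 genes compared in the WT, 371 were at least 2-fold higher with an interval that excluded 1 (5.46%) and 179 at least 2-fold lower (2.64%). Of 6419 genes in the Cko, 508 were higher (7.91%) and 173 lower (2.7%). These limits are what "higher" and "lower" mean below. Of the 15 surface genes on the list, 10 had enough counts, and 9 were higher in the WT and 9 in the Cko, namely Vcam1, Axl, Emr1, Mrc1, Csf1r, Sirpa, Cd68, Aif1 and Fcgr1. Their median log2 ratio was 4.15 in the WT and 3.73 in the Cko, whereas that of all genes was -0.01 and 0.12. Siglec1, Cd163 and Clec4f were not listed in either library.

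Vcam1 held 0, 4.5 and 29 UMIs (lowest, median, highest) in the 26 WT cells, or 651 CPM, against 14.2 in the other WT cells, a ratio of 45.9 (37.9 to 55.2). In the 18 Cko cells it held 0, 1.5 and 27 UMIs, or 677 CPM, against 11.7, a ratio of 58.1 (46.2 to 72.6). In the 12 rule-free cells of each library Vcam1 was at 1271 (1042 to 1534) and 1059 (829 to 1334) CPM. The cells were uneven, with 7 of 26 WT and 5 of 18 Cko cells lacking a Vcam1 UMI. Hmox1 held 0, 2 and 21 UMIs in the WT and 0, 1.5 and 19 in the Cko, with ratios of 60.1 (47.3 to 76.0) and 26.3 (19.4 to 35.0). Axl held 0, 2 and 9 UMIs in the WT and 0, 1 and 10 in the Cko, with ratios of 186 (123 to 284) and 102 (63.0 to 161). After thinning to 3000 UMIs a Vcam1 UMI was seen in 52.0% of the WT C1q cells (73.1% before thinning, 1 cell left out) and 55.6% of the Cko C1q cells (72.2% before), against 1.48% and 0.675% of the B-marked cells (2.34% and 1.18% before). The share in C1q cells was above this background in both libraries.

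Mrc1, the mannose receptor, had a ratio of 77.2 (49.8 to 118) in the WT and 104 (58.1 to 181) in the Cko. For Emr1, which encodes the macrophage antigen F4/80, the ratios were 37.9 (24.3 to 57.6) and 13.4 (7.55 to 22.3). Csf1r, the receptor for the macrophage growth factor M-CSF, was 15.5-fold (10.6 to 21.9) and 13.2-fold (9.07 to 18.6) the level of other cells. Among the 7 complement and pattern-recognition genes compared in each library, 4 were higher in the WT, with Cfp, Fcna and Clec7a among them, and 3 in the Cko, with Cfp and Cd14 among them. Fcna (chr2:25624666-25628030), which encodes the lectin ficolin A, stood out in the WT with 86 UMIs and a ratio of 347 (228 to 542). Of 12 genes for the uptake of dying cells, 5 were higher in WT and 7 in Cko C1q cells, and Lrp1, Stab1, Itgb5, Dnase2a and Trem2 were among them in both.

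The heme and iron genes included Hmox1 and Slc40a1, the iron exporter ferroportin. Slc40a1 was 13.6-fold higher (10.6 to 17.2) in the WT C1q cells and 11.1-fold (7.73 to 15.6) in the Cko. Of 10 genes compared in the WT 5 were higher (Hmox1, Slc40a1, Ftl1, Slc48a1 and Trf), and of 11 in the Cko 8 were, with Fth1, Blvra and Slc11a1 added. Trf encodes transferrin, the iron carrier of plasma, and its ratios were 20.3 (14.8 to 27.3) and 13.9 (10.7 to 17.8). The lysosome list had 14 of 21 genes higher in the WT and 17 of 21 in the Cko, and none lower. Ctsb and Ctsd, proteases of the lysosome, were 8.97-fold (7.95 to 10.1) and 6.28-fold (5.26 to 7.46) higher in the WT and 7.45-fold (6.30 to 8.76) and 5.51-fold (4.30 to 6.96) in the Cko. Lgmn, which encodes the lysosomal protease legumain, had ratios of 19.6 (14.7 to 25.9) and 25.5 (19.0 to 33.7).

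Among lipid genes, Apoe (chr7:19696109-19699188, the lipid carrier apolipoprotein E) was 30.5-fold higher (27.1 to 34.3) in the WT and 19.3-fold (17.5 to 21.4) in the Cko. Lpl (chr8:68880491-68907448), which releases fatty acids from lipoproteins, was 20.1-fold higher (16.2 to 24.7) in the WT and 8.86-fold (5.79 to 13.03) in the Cko. In all 2 of 6 lipid genes were higher in the WT and 6 of 8 in the Cko. Of the transcription factors 4 of 12 were higher in the WT, with Spic, Maf and Pparg among them, and 4 of 10 in the Cko, with Maf, Id3 and Pparg among them. Spic, a factor needed for iron-recycling macrophages, held 26 UMIs in 12 WT cells, a ratio of 136 (74.9 to 247). Maf had ratios of 106 (73.8 to 151) in the WT and 83.7 (55.0 to 125) in the Cko. Chemokines and cytokines were mixed, with 5 of 11 higher and 3 lower in the WT and 5 of 9 higher in the Cko. Cxcl12 was lower in the WT (1 UMI) and higher in the Cko, where its 25 UMIs lay in 3 cells.

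All 6 MHC class II genes compared were higher in both libraries. Cd74, the invariant chain that guides class II molecules to the lysosome, was 9.35-fold higher (8.13 to 10.7) in the WT and 14.8-fold (13.7 to 16.1) in the Cko. H2-Aa was 14.01-fold higher (11.6 to 16.8) in the WT and 23.5-fold (21.0 to 26.1) in the Cko. The list's median log2 ratio was 2.94 in the WT and 3.94 in the Cko. Immediate early genes, which rise when cells are handled or stimulated, were higher for 5 of 9 in the WT (Fos, Atf3, Dusp1, Zfp36 and Nr4a1) and 1 of 8 in the Cko (Egr1). Of the S phase and mitosis genes 0 of 14 were higher in either library, 0 were lower in the WT and 4 were lower in the Cko (Cdk1, Ccnb1, Ccnb2 and Cdc20).

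Hmox1, Vcam1, Apoe, H2-Aa and Cd74 were both among the 25 genes with the highest ratios in the WT (at least 100 UMIs) and among the 15 in the Cko (at least 30 UMIs). So were the C1q genes, on which the cells were selected. The rest of the WT list ran from Lpl, Sepp1 (selenoprotein P, 18.7-fold, 15.95 to 21.8) and Marcks (15.1-fold, 12.3 to 18.4), an actin-binding protein, to genes of many cells such as Ftl1 (2.76-fold), Fth1 (1.99-fold), B2m (1.96-fold) and Malat1 (1.89-fold). The rest of the Cko list included Axl, Maf, Lgmn and Cx3cr1, the fractalkine receptor (25.3-fold, 16.9 to 36.7). Sparc, a matrix protein of stromal cells, was also among the Cko 15, but its 36 UMIs lay in 2 cells. The Cko stromal and endothelial markers summed to 73 UMIs, in 5 cells, against 4 UMIs in the WT C1q cells.

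**Figure D3:**
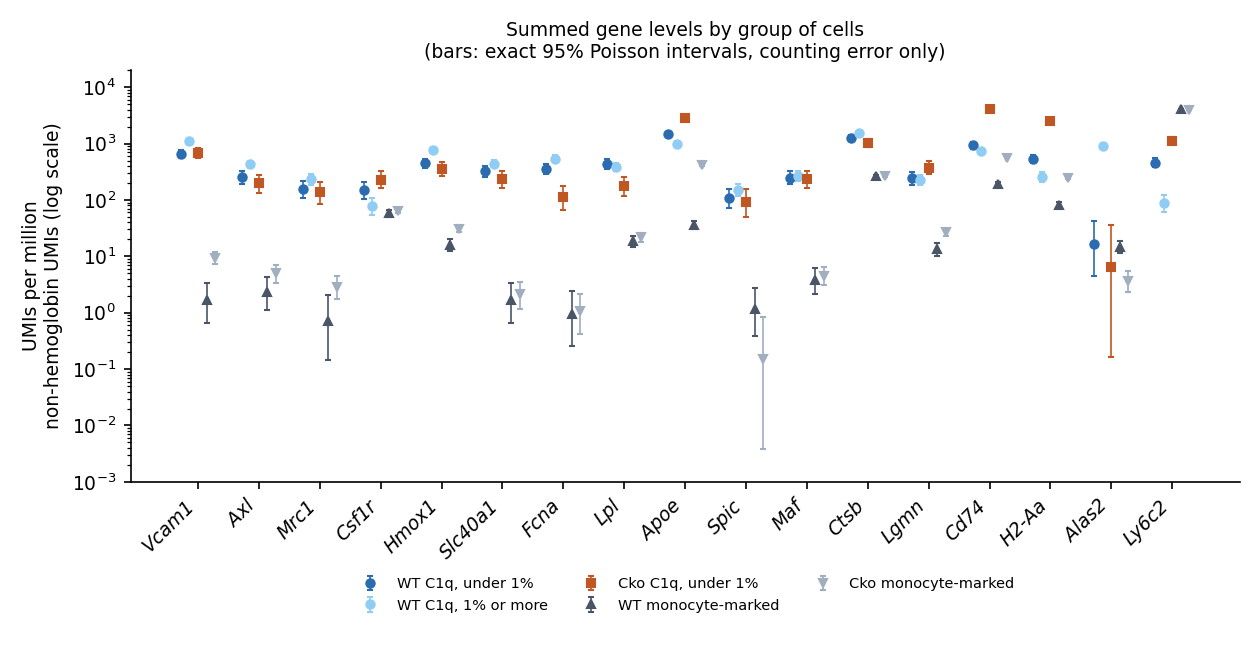
Level of 17 genes (y axis, CPM, log scale) in C1q cells of the WT under 1% hemoglobin, of the WT with 1% or more and of the Cko under 1%, and in monocyte-marked cells of both libraries, with exact 95% Poisson intervals as bars. Vcam1, Axl, Mrc1, Slc40a1 and Maf lie far above the monocyte-marked cells in every C1q group, and Ly6c2 lies below them.

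Compared with the monocyte-marked cells of the same library (monocyte rule met, no other rule met), the C1q cells had higher macrophage genes and lower monocyte genes. There were 463 such cells in the WT and 695 in the Cko. Of 5465 genes in the WT, 282 were higher (5.16%) and 395 lower (7.23%), and of 5655 in the Cko, 283 were higher (5%) and 248 lower (4.39%). Surface genes were higher for 7 of 9 in the WT and 8 of 9 in the Cko. Vcam1 was 392-fold higher (186 to 992) in the WT and 72.3-fold (52.3 to 100.8) in the Cko, and Slc40a1 194-fold (89.7 to 498) and 112-fold (58.9 to 225). Ly6c2, which encodes a surface protein of inflammatory monocytes and was not used to mark them, was lower, at a ratio of 0.113 (0.0932 to 0.137) in the WT and 0.284 (0.243 to 0.330) in the Cko. Of the monocyte markers 7 of 9 were lower in the WT and 6 of 10 in the Cko, but F13a1, Fn1, Ccr2 and Ms4a6c chose the monocyte-marked cells. Cx3cr1 was higher in both, at 2.71-fold (1.43 to 4.78) and 6.79-fold (4.53 to 9.90). The neutrophil list was higher for 8 of 11 genes in each library, in groups of which 7 WT and 6 Cko C1q cells met the neutrophil rule and no monocyte-marked cell did. Likewise 6 of 7 B cell markers were higher in the WT, where 6 C1q cells met the B cell rule.

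Within the C1q cells, Vcam1 and MHC class II transcripts were spread unevenly. Cells were divided at 5 UMIs of Vcam1 and at 20 UMIs summed over Cd74, H2-Aa, H2-Ab1 and H2-Eb1, limits set after the values were seen. Of the 26 WT cells under 1% hemoglobin, 10 passed the Vcam1 limit alone, 3 the MHC class II limit alone, 3 both and 10 neither. Of the 18 Cko cells, 3 passed Vcam1 alone, 7 MHC class II alone, 2 both and 6 neither. Cells that passed neither were mostly those with other cells' transcripts, since 7 of the 10 WT and 5 of the 6 Cko cells met the neutrophil or B cell rule. Cells that passed the Vcam1 limit alone were not free of such transcripts. Among them were WT cells with 1317 and 2106 UMIs of S100a8 and a Cko cell with 109, which met the neutrophil rule. Few cells lay near the limits, 4 in each library with 3 to 6 Vcam1 UMIs and 0 in the WT and 1 in the Cko with 15 to 24 MHC class II UMIs. These are ranges of a count and not cell types. Among the 56 hemoglobin-bearing WT cells, 26 passed Vcam1 alone, 1 MHC class II alone, 5 both and 24 neither.

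**Figure D4:**
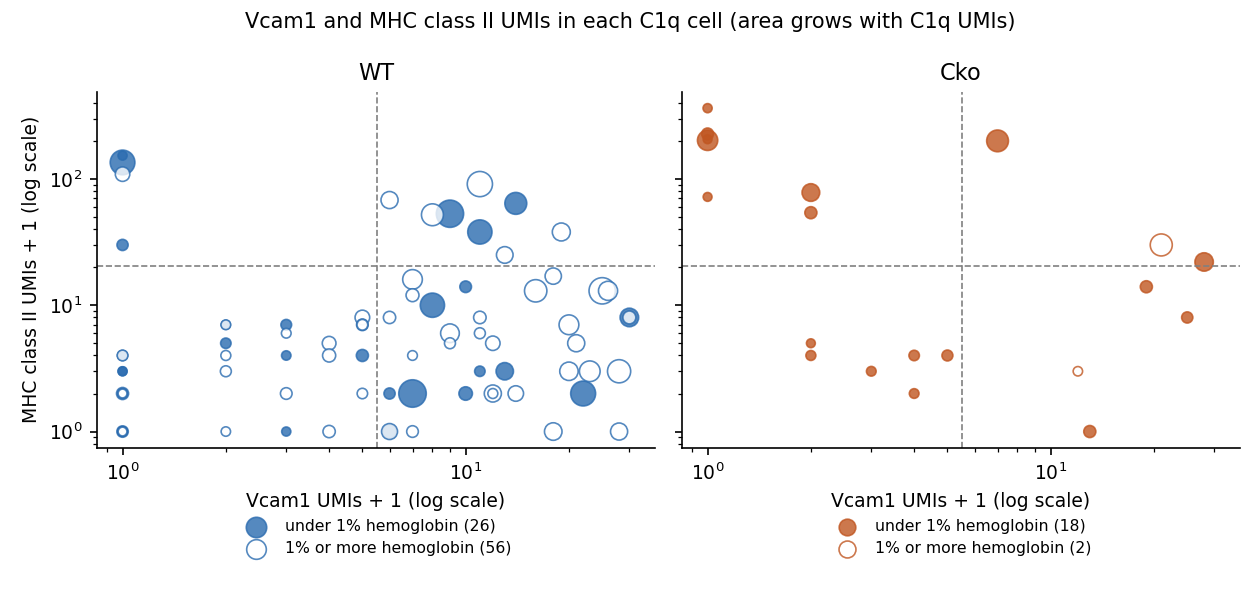
Each circle is 1 C1q cell, with Vcam1 UMIs plus 1 on a log x axis and UMIs of Cd74, H2-Aa, H2-Ab1 and H2-Eb1 plus 1 on a log y axis, the WT on the left and the Cko on the right. Filled circles are cells under 1% hemoglobin, open circles those with 1% or more, the area grows with the C1q UMIs and dashed lines mark 5 and 20 UMIs, with 10 of 26 filled WT circles and 3 of 18 filled Cko circles in the lower right.

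The cells that passed the MHC class II limit alone differed from those that passed the Vcam1 limit alone in genes that did not set the limits. In the Cko, Apoe stood at 6764 CPM (6053 to 7536) in the 7 MHC class II cells and 1977 (1324 to 2839) in the 3 Vcam1 cells. These 3 Vcam1 cells held 22, 6 and 1 Apoe UMIs, and the cell with 22 met the neutrophil rule. In the WT Apoe was at 6860 (5633 to 8276) in 3 MHC class II cells and 1346 (1085 to 1650) in 10 Vcam1 cells. However, the 3 WT MHC class II cells held 92, 17 and 0 Apoe UMIs, so most came from 1 cell. The cell with 17 met the neutrophil rule. Hmox1 went the other way, with 103 CPM (33.4 to 240) against 1977 (1324 to 2839) in the Cko and 315 (102 to 734) against 1229 (980 to 1521) in the WT. Slc40a1 stood at 20.6 (0.521 to 115) against 1159 (675 to 1855) in the Cko and 252 (68.6 to 645) against 629 (455 to 847) in the WT, where the intervals overlap. Fcna had 0 UMIs in the 7 Cko cells and 9 in the 3 Cko Vcam1 cells, and 1 UMI in 3 WT cells against 50 in 10. Csf1r was at 411 (251 to 635) against 273 (74.3 to 698) in the Cko and 566 (259 to 1075) against 190 (101 to 325) in the WT, with overlapping intervals in both. In the cells that passed both limits, Apoe and Slc40a1 were at 5044 and 1180 CPM in the 2 Cko cells and at 7773 and 1397 CPM in the 3 WT cells.

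**Figure D5:**
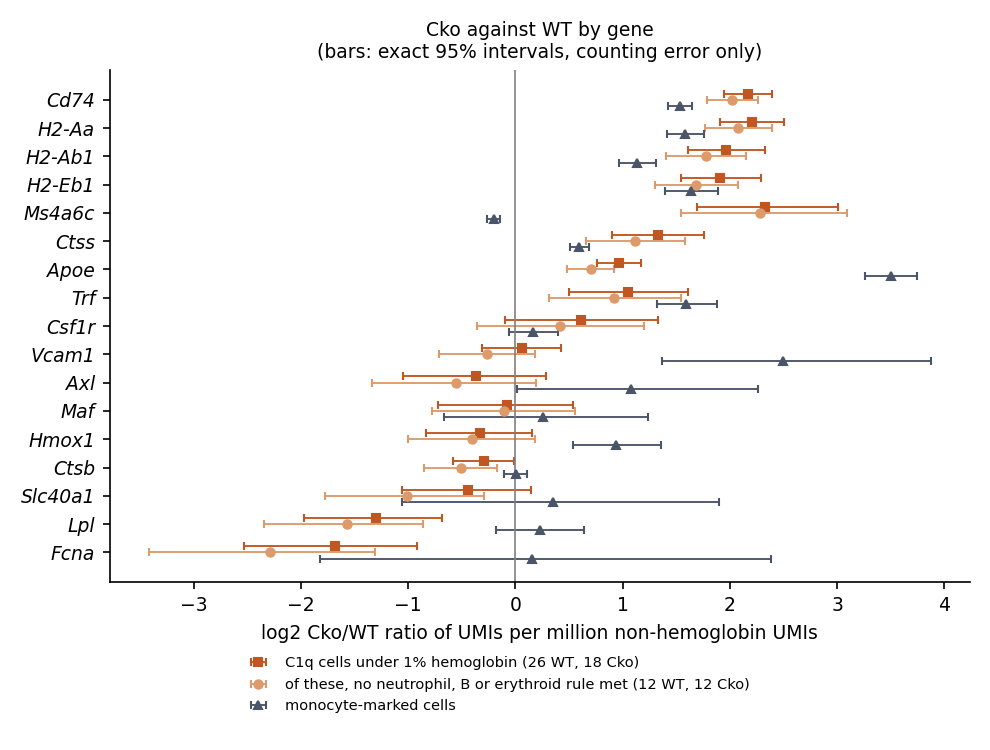
Log2 Cko/WT ratio (x axis) of 17 genes in C1q cells under 1% hemoglobin (26 WT and 18 Cko cells, squares), in the rule-free ones among them (12 and 12 cells, circles) and in monocyte-marked cells (triangles), with exact 95% intervals as bars. The MHC class II genes and Ms4a6c lie to the right of 0 in the C1q cells, Lpl and Fcna to the left, and Vcam1 close to 0.

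Between genotypes, levels summed over the C1q cells under 1% hemoglobin were higher in the Cko for MHC class II and lower for Fcna and Lpl. Vcam1, Axl, Hmox1 and Maf had ratios close to 1. Of 975 genes listed in both libraries with at least 50 UMIs over both groups, 52 were at least 2-fold higher in the Cko (5.33%) and 69 at least 2-fold lower (7.08%), around a median log2 ratio of -0.11. These ratios compare 2 libraries and not the conditions. They also pool different mixtures of cells. The Vcam1 limit alone was passed by 10 WT and 3 Cko cells, and the MHC class II limit alone by 3 and 7. The summed MHC class II level, which set these groups, was 541 (WT) and 1363 (Cko) CPM with Vcam1 alone. It was 19826 and 24569 with MHC class II alone, 9231 and 23608 with both, and 209 and 201 with neither. The part of this split in the ratios was not tested. All 5 MHC class II genes compared were higher. Cd74 held 0, 1 and 53 UMIs in the WT cells and 0, 9 and 138 in the Cko cells, and the levels were 930 and 4168 CPM, a ratio of 4.48 (3.84 to 5.24). The ranges overlap, and 1 cell of each library held 23.8% and 21.8% of these UMIs. H2-Aa had a ratio of 4.61 (3.76 to 5.67), H2-Ab1 of 3.90 (3.06 to 5.00), H2-Eb1 of 3.76 (2.91 to 4.89) and H2-DMa of 2.06 (1.33 to 3.21). In the rule-free cells Cd74 was at 4.07 (3.45 to 4.81) and H2-Aa at 4.21 (3.40 to 5.25), and H2-DMa at 1.94 (1.19 to 3.21) was under 2-fold. Monocyte markers were also higher in the Cko C1q cells, at 2643 against 763 CPM summed over the list, and at 3030.0 against 1236 CPM in the rule-free cells. Some of the rule-free cells met the monocyte rule. The part of the monocyte markers in these ratios was not tested.

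The same genes were also higher in the Cko outside the C1q cells. In monocyte-marked cells the Cko/WT ratio was 2.90 (2.69 to 3.13) for Cd74, 2.998 (2.67 to 3.37) for H2-Aa, 2.20 (1.95 to 2.49) for H2-Ab1 and 3.11 (2.64 to 3.69) for H2-Eb1. In B-marked cells Cd74 was at 2.28 (2.13 to 2.45). A difference between the C1q cells and these cells was not tested. Apoe had a ratio of 1.95 (1.69 to 2.25) in the C1q cells and 11.3 (9.60 to 13.4) in the monocyte-marked cells, where the WT held 154 UMIs and the Cko 2726. Ms4a6c, which encodes a membrane protein of monocytes, had a ratio of 5.02 (3.23 to 8.05) in the C1q cells and 0.871 (0.835 to 0.908) in the monocyte-marked cells, which it helped to choose. Ctss, a protease that trims the class II invariant chain, was at 2.51 (1.87 to 3.39) in the C1q cells, and Trf at 2.07 (1.42 to 3.04).

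Fcna held 0, 2 and 14 UMIs in the WT cells and 0, 0 and 5 in the Cko cells, with a UMI in 17 of 26 and 6 of 18 cells. The levels were 359 and 112 CPM, a ratio of 0.312 (0.174 to 0.528), and 0.205 (0.0936 to 0.403) in the rule-free cells. Lpl held 0, 1.5 and 16 UMIs in the WT and 0, 0 and 11 in the Cko, a ratio of 0.405 (0.255 to 0.624), and 0.337 (0.197 to 0.551) in the rule-free cells. In monocyte-marked cells Lpl was at 1.17 (0.881 to 1.56). In C1q cells that passed the Vcam1 limit alone, Fcna was at 731 (543 to 964) CPM in the WT and 614 (281 to 1165) in the Cko. There Lpl was at 863 (657 to 1113) and 886 (472 to 1515). In those that passed the MHC class II limit alone, Lpl was at 818 (436 to 1399) and 41.1 (4.98 to 149). In cells that passed both limits, Fcna was at 1397 and 644 and Lpl at 1822 and 644. Blvrb, which reduces biliverdin and is abundant in red cell precursors, had a ratio of 0.406 (0.253 to 0.630), but it was at 0.260 (0.250 to 0.271) over the other cells as well. The ratio of Vcam1 was 1.04 (0.804 to 1.34), of Axl 0.775 (0.483 to 1.22), of Hmox1 0.796 (0.563 to 1.11), of Maf 0.946 (0.608 to 1.45) and of Slc40a1 0.737 (0.482 to 1.11), and each interval included 1. Slc40a1 was lower in the rule-free cells, at 0.496 (0.292 to 0.816). Of the 7 surface genes compared, 0 passed the limits in either direction.

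The lysosome list had 2 of 14 genes higher in the Cko (Ctss and Ctsh), and the heme and iron list 1 of 6 higher (Trf) and 1 lower (Blvrb). The transcription factor list had 2 of 5 higher, Spi1 (PU.1) at 2.51 (1.68 to 3.79) and Cebpb at 3.72 (2.35 to 6.01). In the rule-free cells Spi1 was at 1.74 (0.910 to 3.38) and Cebpb at 5.78 (2.65 to 14.4). Ccl6, a chemokine, was higher at 3.42 and was at 2.99 (1.69 to 5.50) in the rule-free cells. The S phase and mitosis list had 4 of 9 genes lower (Mki67, Top2a, Cdk1 and Ccnb2), and in the rule-free cells 1 gene could be compared and did not pass. Among genes linked to the substrates of S1P, 8 of 26 SREBP targets were listed in both libraries and 0 of these had enough UMIs, and 0 of 8 ATF6-linked chaperones passed the limits (median log2 ratio -0.34). In the rule-free cells 3 of these chaperones could be compared, and Calr was lower. Of the Stfa family BC100530 alone had enough UMIs, and it did not pass. Against other cells of the same library, 5 of 7 Stfa genes were lower in the Cko C1q cells, whereas in the WT 2 of 7 were lower and 1 (Stfa3) was higher. However, the 192 Stfa UMIs of the 26 WT cells lay in 4 cells, and the 12 rule-free WT cells had 0 UMIs of all 8 genes. The rule-free Cko cells held 6 of the 113 Stfa UMIs of the 18 Cko cells.

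The 10 highest Cko/WT ratios held neutrophil and monocyte genes beside those of MHC class II. Retnlg, a neutrophil gene, led at 17.5 (9.68 to 34.7), but 1 Cko cell held 91.0% of its 133 UMIs, and in the rule-free cells the ratio was 1.0. S100a6, a calcium-binding protein, was at 11.7 (6.37 to 23.5), and at 12.5 (4.52 to 48.1) in the rule-free cells. Ifitm6 at 5.31 (3.50 to 8.27) had 49.5% and Igfbp4 at 4.43 (2.46 to 8.403) had 48.9% of their Cko UMIs in 1 cell. Fxyd5 at 4.03 (2.29 to 7.38) and Anxa2 at 3.94 (2.24 to 7.23) came next. The 10 lowest were led by genes of B cell precursors and red cell precursors. Vpreb3, part of the surrogate light chain, held 108 UMIs in 8 WT cells and 0 in the Cko, which is at least 22.8-fold lower against a floor of 3 counts over the group. Igll1, Mzb1 and Cd79a held 1 UMI each in the Cko, and 74, 52 and 50 in the WT. Car2, the carbonic anhydrase of red cell precursors, was at 0.0450 (0.00914 to 0.135), and Ebf1, Chchd10, Hist1h2ap and Cd24a were also among the 10. Vpreb3, Cd79a and Ebf1 are genes of the B cell rule, which 6 WT and 0 Cko members met. Hist1h2ap was lower in the rule-free cells too, at 0.0560 (0.0113 to 0.171). With the 12 rule-free cells of each library 434 genes had enough UMIs, of which 23 were higher and 51 lower.

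In the 56 WT C1q cells with 1% or more hemoglobin, Vcam1, Hmox1 and Axl stood above the 26 under 1%, by less than 2-fold. Their levels did not exceed those of the 12 rule-free cells among the 26. Hemoglobin chose the 56 cells, so the red cell genes that go with it are a description. Vcam1 held 0, 5.5 and 29 UMIs per cell and stood at 1129 CPM against 651, a ratio of 1.73 (1.44 to 2.09). Hmox1 had a ratio of 1.74 (1.39 to 2.19), Axl of 1.68 (1.25 to 2.29), Fcna of 1.51 (1.17 to 1.95) and Slc40a1 of 1.37 (1.04 to 1.81). In the 12 rule-free WT cells Vcam1 was at 1271 CPM, Hmox1 at 777, Axl at 518, Fcna at 718 and Slc40a1 at 682, against 1129, 777, 428, 540 and 440 in the hemoglobin-bearing cells. With a hemoglobin limit of 5% in place of 1%, the log2 ratio of Vcam1 rose from 0.79 to 1.38. In all 0 of 8 surface genes passed the limits. After thinning to 3000 UMIs, a Vcam1 UMI was seen in 71.4% of these cells (57.8 to 82.7%, 78.6% before thinning). Apoe had a ratio of 0.679 (0.587 to 0.786), which did not pass the limits. Of 5 MHC class II genes 2 were lower by the limits, H2-Aa at 0.481 (0.369 to 0.627) and H2-Eb1 at 0.395 (0.278 to 0.558). The MHC class II result depended on the hemoglobin limit. At 5% the log2 ratios of H2-Aa (0.16), Cd74 (0.69), H2-Ab1 (0.35) and H2-DMa (0.49) turned positive, as did those of Cd74 (0.065) and H2-Ab1 (0.12) at 0.5%.

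Of 1768 genes compared between these groups, 243 were higher in the hemoglobin-bearing cells (13.7%) and 101 lower (5.71%). All 14 erythroid markers compared were higher. Alas2, which starts heme synthesis in red cells, held 0, 5 and 44 UMIs in the hemoglobin-bearing cells and 4 UMIs in all in the 26 others, a ratio of 55.1 (21.3 to 203). Fam46c had 0 UMIs under 1% hemoglobin and was at least 13.1-fold higher against a floor of 3 counts over the group. Ppp1r15a, Rsad2, Icam4, Smox, Tmcc2 and Cdr2 were also among the 10 highest, at 31.6-fold to 42.2-fold. They had 1 or 2 UMIs each in the cells under 1%, and the lower bounds of their intervals ran from 5.44 to 11.2. Of the heme and iron genes 4 of 9 were higher, Fth1 (ferritin heavy chain) at 2.10 (1.97 to 2.25), Blvrb at 4.66 (3.79 to 5.79), Slc48a1 (a heme transporter) at 2.08 (1.35 to 3.32) and Tfrc (the transferrin receptor) at 4.46 (2.72 to 7.75). The 10 lowest were genes of granulocyte and B cell precursors, Igll1, Nkg7, Ctsg, Prtn3, Ms4a3, Elane, Mpo, Fcnb, Plac8 and Hp, at ratios from 0.0158 (0.00188 to 0.0592) for Igll1 to 0.108 (0.0581 to 0.190) for Hp. Of the hemoglobin-bearing cells 53 of 56 met the erythroid rule, 6 the neutrophil rule and 3 the B cell rule, and Scrublet called 0 of the 56 as doublets. Their median was 5084.5 non-hemoglobin UMIs, against 8496 in the members under 1% and 2452 in the erythroid-marked cells.

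The 2 hemoglobin-bearing Cko cells were not compared as a group. One held 83 C1q UMIs, 20 of Vcam1, 70 of Apoe and 15 of Alas2. The other held 7 C1q UMIs, 11 of Vcam1, 1 of Apoe and 5 of Alas2. Both thus carried Vcam1 and Alas2 under the same barcode. Among the 56 hemoglobin-bearing WT cells, 44 had a Vcam1 UMI and 48 an Alas2 UMI.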

How the data were processed

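BMCs of 1 WT and 1 Cko mouse were analysed. The deposited tables hold UMI counts for each gene in each barcode, made by the authors from 10x reads with Cell Ranger on GRCm38, as the submitters' processing notes name them (version not given in the sources used here). The total row and sum column were dropped, and a symbol listed in more than 1 line (1 in the WT) was summed. Barcodes with at least 200 genes were kept (16 WT and 8 Cko barcodes dropped), which left 6271 and 3662 cells. Doublets were called with Scrublet (scanpy 1.11.5, expected rate 5%), 122 (WT) and 38 (Cko), and were kept.

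UMIs were summed over the cells of a group and scaled to 1000000 non-hemoglobin UMIs. A ratio was called at 2-fold or more with an exact conditional 95% interval that excluded 1, and for Cko over WT at least 50 UMIs over both groups were needed. Shares have exact binomial (Clopper-Pearson) and sums exact Poisson intervals. No test was made with 1 library per genotype, and cells were not treated as replicates. Comparison cells were marked by at least 5 UMIs of class genes (20 for neutrophil genes), fewer than 5 C1q UMIs, under 1% hemoglobin (1% or more for erythroid-marked cells) and no other rule met. For shares of cells with a UMI, cells were thinned to 3000 UMIs. Intervals were tested on simulated Poisson counts, the model that the intervals assume. These counts left out differences between cells, so the result does not cover uneven cells such as these.

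The members, gene lists and rules were chosen with earlier results of these data known. Genes were named when they belonged to a list, or were among the 25 (WT, at least 100 UMIs) or 15 (Cko, at least 30 UMIs) highest over other cells, the 10 highest or lowest Cko/WT ratios, or the 10 highest or lowest ratios of hemoglobin-bearing over other WT members. Mbtps1 and Sp7 were named in any case, and some genes that these rules name are not reported here. Alternatives were other limits on C1q UMIs, hemoglobin, genes and UMIs, thinning, doublet removal, a mean over cells and leaving out the cell with the most UMIs of a gene. The subset of rule-free cells was added after the data were seen. Gene positions are from GENCODE on GRCm38 and promoter sequences from RefSeq (GRCm38.p6). Python 3.11.15, numpy 2.4.6, pandas 2.3.3, scipy 1.17.1 and matplotlib 3.10.9 were used.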

Additional observations from a re-analysis of the deposited data

How the results depend on the processing

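No paired analysis was possible because each genotype was 1 library. The Cko share of C1q cells stayed below the WT share under every limit tried. With at least 3 C1q UMIs the shares were 1.63% (WT) and 0.983% (Cko), with at least 10 they were 0.989% and 0.328%, and thinned to 3000 UMIs 0.846% and 0.328%. Among cells under 1% hemoglobin the WT share was 0.832%. Among cells that met none of the neutrophil, B cell and erythroid rules, an alternative added after the data were seen, the Cko share was 1.08% and the log2 ratio moved from -1.26 to -0.50. With a hemoglobin limit of 5%, 50% of the WT members were above it. Without the neutrophil-, B- and erythroid-marked members, 585 genes were higher than in other cells in the WT, against 371.

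The counts of Cko/WT calls depended on the filter and on which cells were used. Against 52 genes higher, there were 29 with at least 10 C1q UMIs, 30 with at least 100 UMIs per gene, 193 with at least 10 UMIs per gene, 159 over all C1q cells and 23 over rule-free cells. Against 69 lower, there were 30 with at least 100 UMIs per gene, 249 with at least 10, 108 without the cell with the most UMIs of the gene and 354 over all C1q cells. The direction of Irf8 turned with at least 10 C1q UMIs (log2 ratio -0.052) and that of Calr without its top cell (0.11). BC100530 turned to 1.13 with called doublets removed, 0.12 as a mean over cells, 0.018 without its top cell and 0.28 over all C1q cells. The cause was not tested.

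For hemoglobin-bearing over other WT members, a limit of 0.5% turned Cd74 to 0.065 and H2-Ab1 to 0.12. A limit of 5% turned Csf1r to 0.22, Tyrobp to 0.59, Cd63 to 0.047, Spi1 to 0.22, Cd74 to 0.69, H2-Aa to 0.16, H2-Ab1 to 0.35 and H2-DMa to 0.49, so the lower MHC class II level of these cells held at 1% and not at 5%. In the Cko/WT ratios of single genes and their counts, 653 values moved by less than the counting interval, 47 moved further with the same sign and 6 turned. For C1q cells against other cells, leaving out members that met the neutrophil, B cell or erythroid rule moved 24 of 25 WT and 15 of 15 Cko ratios of the named genes beyond that interval, and a limit of 10 C1q UMIs moved 21 and 12, all of them to higher ratios. For hemoglobin-bearing over other WT members 65 values moved, 10 turned and 223 stayed within the interval. The small number of C1q cells limits the precision of every ratio given.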
